A study of Mus musculus with 18 samples.

Results

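The nuclear-encoded subunits of the respiratory chain and of the ATP synthase were examined in wt1-SAM brown adipocytes. Members were the rows of the count table whose symbols begin with Ndufa, Ndufb, Ndufc, Ndufs, Ndufv, Uqcr, Cox4i, Cox5, Cox6, Cox7, Cox8 or Atp5, together with Sdha to Sdhd and Cyc1. Assembly factors named Ndufaf, symbols containing -ps, and the brown fat isoforms Cox7a1 and Cox8b were left out, and at least 10 counts were asked in 9 of the 18 libraries. This gave 82 of the 54347 rows of the table, of which 38 belong to complex I, 4 to complex II, 9 to complex III, 14 to complex IV and 17 to complex V. All 82 had at least 10 counts in all 18 libraries and entered the test of 14949 genes. A further 6 symbols did not reach the count limit, namely Cox6b2, Cox7b2, Cox8c, Ndufa4l2, Ndufb11b and Ndufs6b, and Cox6b2 was highest among them with 2 to 12 counts per library. Of the members, 28 overlap an exon on the opposite strand, among them Ndufb11 (with Rbm10), Atp5a1 (Haus1), Atp5j (Gabpa), Cox4i1 (Emc8) and Ndufb1 (Cpsf2). Reads of the neighbour could be counted with them if the counting took no account of strand. Ndufb4c is annotated as a processed pseudogene that resembles Ndufb4, so the division of reads between them is uncertain, and Ndufb1 is listed under a bidirectional promoter lncRNA entry.

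wt1-SAM is a single immortalised line of mouse brown preadipocytes that stably carries the CRISPR activation system SAM, which every group shares. The cells were differentiated in culture, reverse transfected on day 4 with the non-targeting control ctrlA, with LNA1 or with LNA2, and harvested on day 7. LNA1 and LNA2 are gapmers, antisense oligonucleotides with locked nucleic acid bases, directed against the long non-coding RNA Gm15551. In each arm cells were left unstimulated or received 1 µM isoproterenol, a β-adrenergic agonist, for 24 h before harvest. The 6 groups (unstimulated or isoproterenol, with ctrlA, LNA1 or LNA2) had 3 libraries each, numbered 2, 3 and 4. The labels do not say whether these numbers mark separate cultures, so p-values measure the spread between these libraries, which may be technical.

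The respiratory chain sits in the inner mitochondrial membrane. Complex I oxidises NADH and complex II oxidises succinate, complex III passes the electrons on to cytochrome c, and complex IV hands them to oxygen. Complexes I, III and IV pump protons, and complex V, the ATP synthase, lets protons return to make ATP. Brown adipocytes are rich in mitochondria and can let protons return through UCP1 instead, which releases the energy as heat. Most subunits are made from nuclear genes and imported, while a core set is encoded by the mitochondrial genome.

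The oligonucleotides are shown first because every comparison between LNAs rests on them. Written 5′ to 3′, LNA1 has 16 bases and is complementary to chr3:126667502-126667517 of GRCm38, within Gm15551, and LNA2 has 16 bases and is complementary to chr3:126667608-126667623.
Negative control A (ctrlA): AACACGTCTATACGC
LNA1: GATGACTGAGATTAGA
LNA2: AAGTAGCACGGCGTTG
The longest stretch of any member transcript complementary to them had 8 bases for ctrlA, 9 for LNA1 and 9 for LNA2. No member held a complementary stretch of 12 bases or more (0 of 82). Of the 14936 tested genes with a transcript sequence 0.0201%, 0.134% and 0.0335% did. Annotated transcripts were searched, and introns were not.

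The promoters of 5 members that were called with isoproterenol or LNA1 in the model with the replicate number as a block are shown, chosen because they hold a known regulatory motif of this gene class. RefSeq promoter windows (GRCm38.p6) were found for 66 of the 82 members, of which 24 held at least 1 of the motifs searched, against 17.1% of all genes with a window. The 250 bases before the start were searched on both strands for the NRF1 core GCATGCGC, the ETS or GABP motif CCGGAAG, the ERR site AAGGTCA, the CRE TGACGTCA and the YY1 motif AAGATGGC. The NRF1 core overlaps its own reverse complement, and each gene was counted once. Bases inside an annotated exon of the gene or of a neighbour were cut off, and capitals mark the motifs.
Ndufa6 (chr15:82354323-82354541, minus strand): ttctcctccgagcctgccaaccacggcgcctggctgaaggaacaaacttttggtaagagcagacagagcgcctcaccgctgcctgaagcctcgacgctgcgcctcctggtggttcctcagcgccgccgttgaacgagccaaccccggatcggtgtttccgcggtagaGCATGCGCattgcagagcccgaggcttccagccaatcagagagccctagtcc
Uqcrh (chr4:116075072-116075268, minus strand): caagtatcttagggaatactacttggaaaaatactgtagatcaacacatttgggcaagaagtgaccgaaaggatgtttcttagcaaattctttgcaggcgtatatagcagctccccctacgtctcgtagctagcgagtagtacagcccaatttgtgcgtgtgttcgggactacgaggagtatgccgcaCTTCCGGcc
Sdhd (chr9:50603850-50603909, minus strand): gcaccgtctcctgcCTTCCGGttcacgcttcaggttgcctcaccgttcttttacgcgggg
Ndufb2 (chr6:39592315-39592564, plus strand): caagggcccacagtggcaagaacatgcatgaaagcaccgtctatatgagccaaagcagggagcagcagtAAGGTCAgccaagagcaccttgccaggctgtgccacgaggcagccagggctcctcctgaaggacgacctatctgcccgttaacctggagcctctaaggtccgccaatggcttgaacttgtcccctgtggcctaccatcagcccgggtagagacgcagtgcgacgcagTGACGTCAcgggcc
Ndufb6 (chr4:40279422-40279671, minus strand): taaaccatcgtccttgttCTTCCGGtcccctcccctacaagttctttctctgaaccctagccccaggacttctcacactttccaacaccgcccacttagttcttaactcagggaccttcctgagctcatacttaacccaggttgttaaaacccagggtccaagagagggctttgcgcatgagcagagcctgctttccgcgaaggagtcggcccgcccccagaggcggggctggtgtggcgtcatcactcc
The Ndufa6 window holds the NRF1 core, those of Uqcrh, Sdhd and Ndufb6 hold the ETS motif on the opposite strand, and that of Ndufb2 holds both the CRE and the ERR site. Over all members with a window, the NRF1 core was present in 12.1% (8 of 66), against 2.56% of all 27025 genes with a window. The ETS motif was present in 18.2% of members and 7.83% of all genes, the ERR site in 7.58% and 4.7%, the CRE in 6.06% and 1.77%, and the YY1 motif in 1.52% and 1.83%. With the 50 bases after the start included, the shares of members and of all genes were 15.2% and 3.05% for the NRF1 core, 25.8% and 9.93% for the ETS motif, 12.1% and 5.38% for the ERR site, 6.06% and 2.03% for the CRE, and 15.2% and 3.19% for the YY1 motif. A match describes letters and does not show that a factor binds there. The 27025 genes were not limited to those expressed in these cells, whereas all members were expressed. No share was computed for expressed genes alone.

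The levels of the members were compared first, as CPM (counts scaled by library size and TMM factor) per kb of transcript. Complex IV held the highest values. Cox4i1, the common isoform of subunit IV, reached 1836 ± 372 CPM per kb (SD, n = 18), Cox6a1 reached 1613 ± 250 (SD, n = 18) and Cox8a 1279 ± 291 (SD, n = 18). In complex V the catalytic β subunit Atp5b was highest with 1082 ± 91.1 CPM per kb, in complex III Uqcrq with 534.8 ± 152, in complex I Ndufb9 with 530.1 ± 141, and in complex II the membrane anchor Sdhd with 229.5 ± 47.5 (SD, n = 18 each). The means of Uqcrq and Ndufb9 differed by less than their SD. The rank of Sdhd above Sdha rested on the libraries numbered 2. Against those numbered 3 and 4, these differed by 0.535 for Sdhd and by -0.242 for Sdha on the log2 scale. Median levels were 138.3 CPM per kb in complex I, 199.3 in complex II, 366.3 in complex III, 425.5 in complex IV and 314.8 in complex V.

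**Figure D1:**
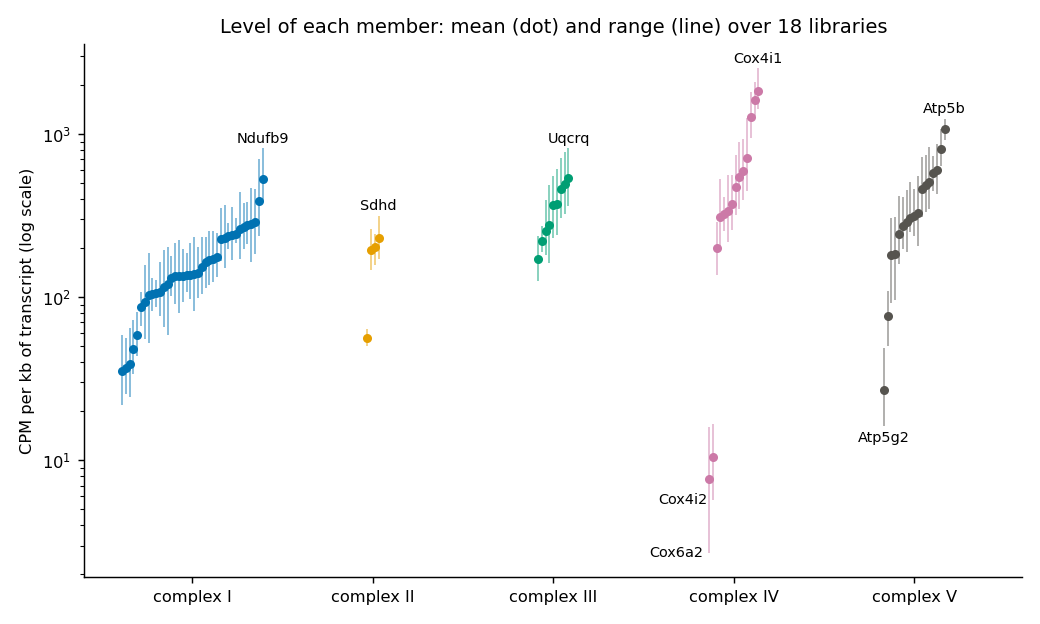
Level of each of the 82 members by complex, as CPM per kb of transcript on a log scale. Dots are means and lines the range over 18 libraries. Cox4i1 is highest at 1836, and the alternative isoforms Cox4i2 and Cox6a2 lie lowest, at 10.4 and 7.67.

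Where a subunit has several isoforms, the level lay mainly with 1 of them. Cox4i2, an isoform of subunit IV known to be induced by low oxygen, stood at 10.4 ± 2.96 CPM per kb, far below Cox4i1. Cox6a2, the isoform typical of heart and skeletal muscle, stood at 7.67 ± 3.75 CPM per kb, far below Cox6a1, and Ndufa4l2 had 0 to 5 counts beside 594.6 ± 210 CPM per kb for Ndufa4 (SD, n = 18 each). Of the genes Atp5g1, Atp5g2 and Atp5g3, which encode the same mature c subunit of the ATP synthase rotor, Atp5g3 was highest with 805.3 ± 134 CPM per kb, followed by 76.7 ± 18.2 for Atp5g1 and 27.1 ± 8.44 for Atp5g2. In these pairs and in this trio the ranges over 18 libraries did not overlap. Cox7a2 (339.5 ± 132) and Cox7a2l (199.2 ± 56.5), a subunit and a related supercomplex factor, lay nearer to each other. Among the subunits of complex II, Sdhd, the flavoprotein Sdha (204.1 ± 24.3) and the iron-sulphur protein Sdhb (194.5 ± 43.0) differed by less than the SD of Sdhd, and the anchor Sdhc was lower with 56.0 ± 4.22 CPM per kb. Cyc1, which encodes cytochrome c1, stood at 366.3 ± 79.8 CPM per kb. Cox7a1 and Cox8b, which the rule left out, averaged 2.14 and 0.843 CPM over the 18 libraries.

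The cells carried the adipocyte markers fixed for the check (10 of 10 with counts in every group, summed level 17400 to 32200 CPM). Of the 11 brown adipocyte markers 9 were tested, and Dio2 and Zic1 averaged 0.0847 and 0.0896 CPM. Ucp1 was low without stimulation, at 1.33 ± 0.19 CPM in unstimulated ctrlA cells, and reached 15.1 ± 1.7 CPM with isoproterenol (SD, n = 3 each). Averaged over the LNAs, its log2 fold change was 3.51 (SE 0.17, adjusted p 1.12e-08 in edgeR), which checks the stimulation. The target of the LNAs could hardly be checked, since Gm15551 had 42 counts over the 6 ctrlA libraries, 24 over the 6 LNA1 libraries and 27 over the 6 LNA2 libraries. These sums are not scaled for depth. With ctrlA, LNA1 and LNA2 its means were 0.647, 0.53 and 0.452 CPM in unstimulated cells, with SD of 0.127, 0.424 and 0.543. In stimulated cells they were 0.339, 0.153 and 0.283 CPM, with SD of 0.301, 0.12 and 0.179 (n = 3 each). The study itself reported robust knockdown by both LNAs on day 7. Library totals ranged from 9167560 to 19723021 counts. The members took 2.02% to 2.80% of them.

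Libraries with the same number resembled each other. Of the members' sum of squares, the replicate number held 85.5%, the LNA 4.98% and stimulation 2.83%, against 49.6%, 12.2% and 11.4% over all genes tested. The libraries numbered 2 had the highest levels. Summed over the 82 members, they averaged 28700 ± 1895 CPM, those numbered 3 21654 ± 1685 CPM and those numbered 4 19797 ± 1401 CPM (SD, n = 6 each). The libraries numbered 2 also held more ribosomal RNA (2.88% to 14.3% of counts, against 0.285% to 1.04% in the others) and more transcripts of the mitochondrial genome (7.86% to 9.79%, against 2.56% to 4.97%). The part of these shares in the members' levels was not tested.

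**Figure D2:**
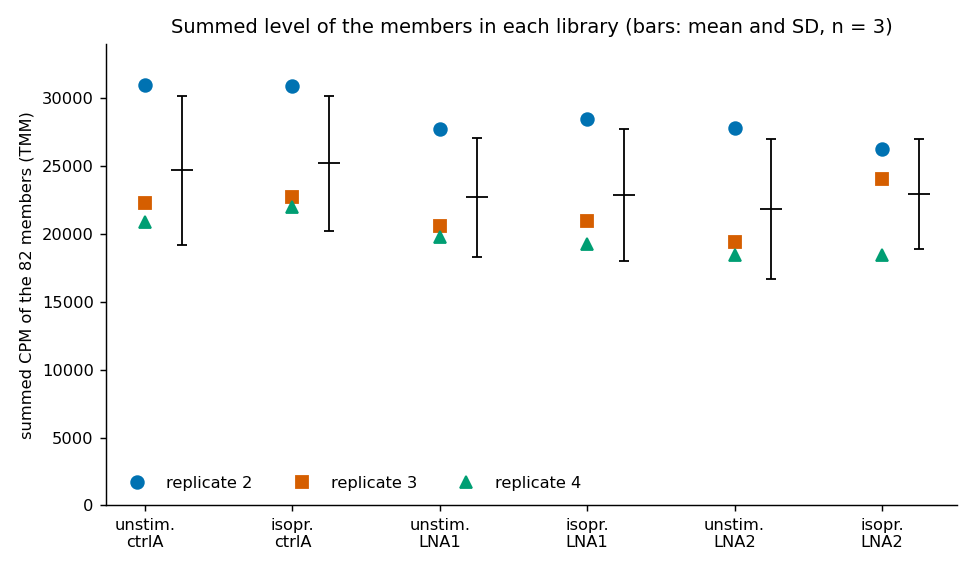
Summed CPM of the 82 members in each library, by group, with the replicate number as symbol and the mean and SD of each group (n = 3) beside it. The libraries numbered 2 lie between 26278 and 31003 CPM in every group, above all libraries numbered 3 and 4.

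The difference of the libraries numbered 2 was uneven among the members. It was 0.70 on the log2 scale in the median of the members, against 0.00 over all genes tested, and 75 of 82 members were higher. All 50 members with transcripts under 1000 bases were higher, with a median of 0.77, and so were 25 of the 32 longer ones, with a median of 0.55. Genes under 1000 bases in general showed a median of 0.46 (n = 1580). Across the members the correlation with log2 transcript length was -0.52 (n = 82), and across all genes it was -0.36 (n = 14936), where genes share the same libraries. Lower in the libraries numbered 2 were the core protein Uqcrc1 by -0.59, Cyc1 by -0.58, Sdha by -0.24, the δ subunit Atp5d by -0.21 and Sdhc by -0.16, and Ndufv1 was also below 0. Complex IV had the highest median of the 5 complexes, 0.83, and all 14 of its members were above 0.

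**Figure D3:**
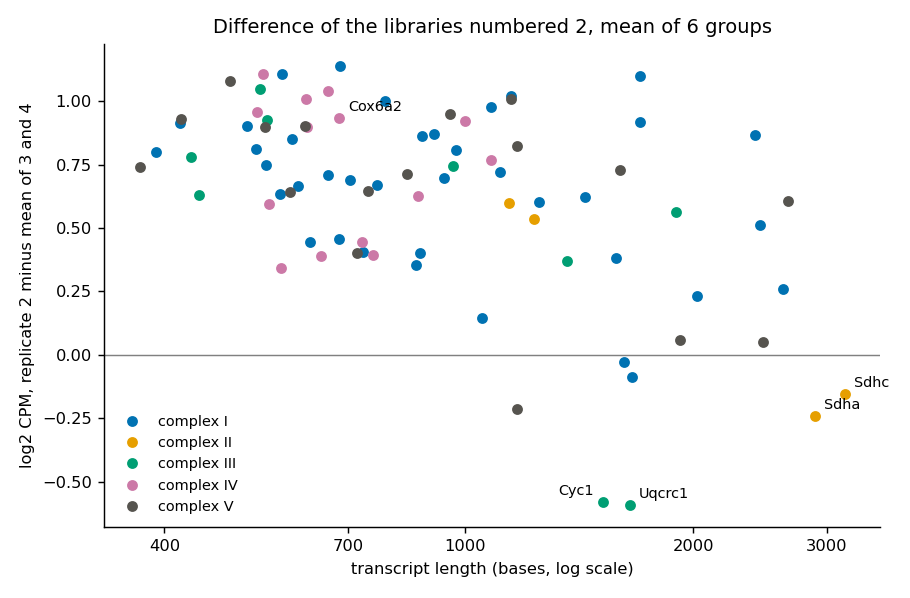
Log2 CPM of the libraries numbered 2 minus the mean of those numbered 3 and 4, averaged over the 6 groups, against transcript length in bases on a log scale, with 1 point per member coloured by complex. All 50 members under 1000 bases lie above 0, and the members below 0 are all longer, with Uqcrc1 lowest at -0.59.

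The comparisons below are therefore given from the edgeR model with 1 term per group and from the same model with the replicate number as a block, which compares libraries of the same number. In both, a gene was called when its Benjamini-Hochberg adjusted p over all genes tested was below 0.05. With the group terms alone, 0 of 82 members were called with isoproterenol, LNA1 or LNA2, between LNA2 and LNA1, and in the interactions of either LNA with isoproterenol. Of all genes tested, 4.58%, 0.475%, 1.59%, 0.97%, 0% and 0% were called in these comparisons. At an unadjusted p under 0.05 the members numbered 3, 1, 4, 0, 0 and 0, where 15%, 6.01%, 10.6%, 9.2%, 0.702% and 0.776% of all genes passed. DESeq2 without the block called 1, 1, 2, 0, 0 and 0, against 7.12%, 1.26%, 3.5% and 2.26% of all genes in the first 4. The median standard error of a member was 0.19 for isoproterenol without the block and 0.049 with it.

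The library isoproterenol LNA2 replicate 3 stood apart from the rest. After removal of the group and number means, its members lay 0.16 above 0 in the median on the log2 scale, while the other 17 libraries lay between -0.08 and 0.04. Over all genes the SD of its residuals was 0.29, against 0.18 to 0.23 in the others, and its share of mitochondrial-genome counts was the lowest, 2.56%. Counts of calls are given below with and without it.

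With isoproterenol members were called in both directions. With the block, 8 of 82 rose (9.76%) and 5 fell (6.1%). These shares were below those of all genes tested, of which 14.2% rose and 12.2% fell. The members' median log2 fold change was 0.02, and that of all genes was 0.00. Without isoproterenol LNA2 replicate 3, 14 rose and 14 fell, against 16.1% and 13.7% of all genes. By complex, 2 rose and 2 fell in complex I, 1 and 1 in complex II, 2 and 0 in complex III, 2 and 1 in complex IV, and 1 and 1 in complex V. Between the 9 pairs of libraries with the same LNA and number, 6 members were higher with isoproterenol in all 9 and 2 were lower in all 9, against 8.4% and 6.91% of all genes tested.

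Ndufa6, an accessory subunit of complex I, had the largest rise of any member. In unstimulated cells replicates 2, 3 and 4 had 319, 164 and 156 CPM with ctrlA, 269, 164 and 139.5 CPM with LNA1, and 275, 148 and 147 CPM with LNA2. With isoproterenol they had 415, 224 and 203 CPM with ctrlA, 357, 219.9 and 180.2 CPM with LNA1, and 312, 246.5 and 172 CPM with LNA2. The stimulated library was higher in 9 of 9 pairs, although the groups overlap because the libraries numbered 2 are high throughout. The log2 fold change was 0.40 (SE 0.054, adjusted p 4.27e-05 in edgeR with the block). Uqcrh, the hinge protein of complex III, had 281, 149.5 and 139 CPM in unstimulated and 334, 187.5 and 158 CPM in stimulated ctrlA cells. With LNA1 it went from 277, 149 and 144.5 to 326, 169 and 159.8 CPM, and with LNA2 from 260.5, 144 and 131 to 300.2, 176 and 160 CPM. It was likewise higher in 9 of 9 pairs, by 0.23 (SE 0.034, adjusted p 6.69e-05 in edgeR with the block). Both calls held in all 18 fits that left out a single library.

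**Figure D4:**
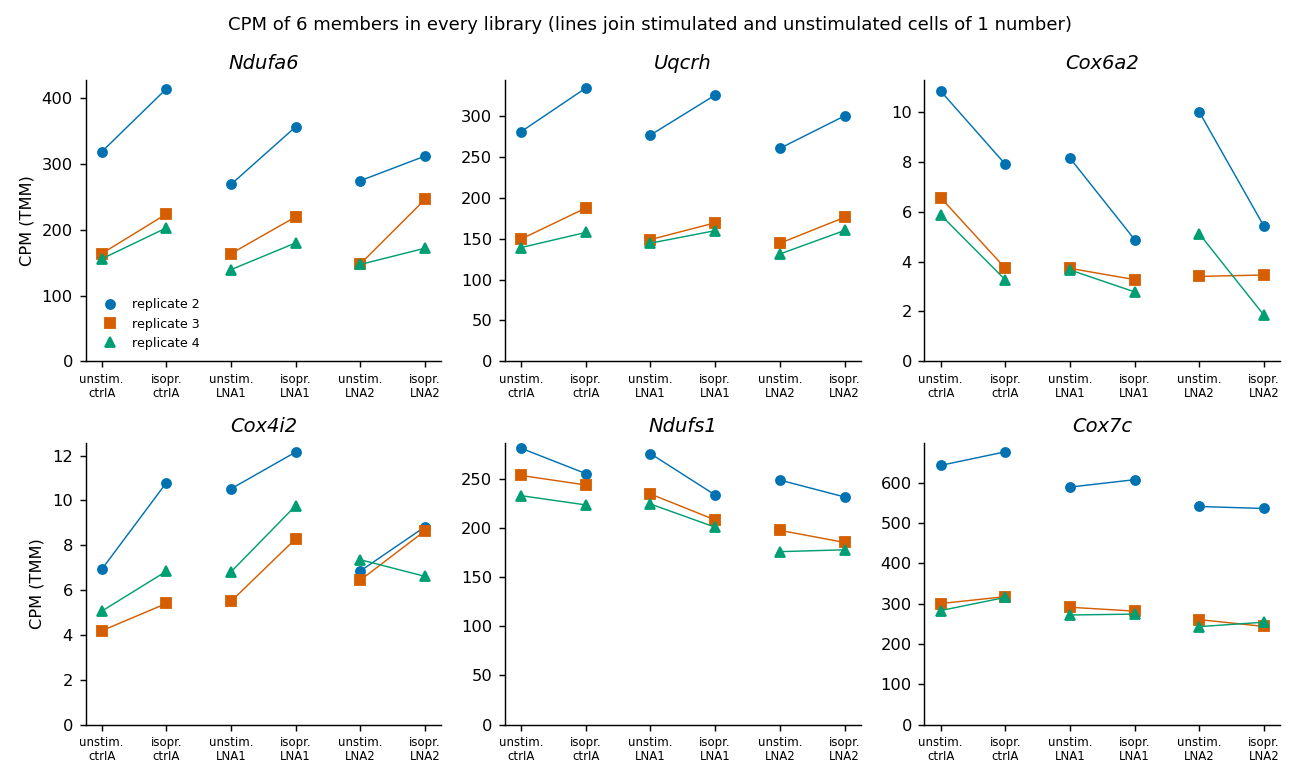
CPM of Ndufa6, Uqcrh, Cox6a2, Cox4i2, Ndufs1 and Cox7c in every library by group, with the replicate number as symbol and lines joining unstimulated and stimulated cells of the same LNA and number. For Ndufa6 and Uqcrh all 9 lines rise, and for Cox6a2 8 of 9 fall.

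The other members that rose belong to every part of the chain. Sdhd, which anchors complex II in the membrane, rose by 0.17 (SE 0.040, adjusted p 0.0047 in edgeR with the block), from 236 to 349 CPM in unstimulated ctrlA cells to 278 to 389 CPM in stimulated ones, and was higher in 9 of 9 pairs. Atp5a1, the α subunit of the ATP synthase, had 1446, 1423 and 1316 CPM in unstimulated and 1553, 1661 and 1544 CPM in stimulated ctrlA cells, so that these groups did not overlap. Its log2 fold change was 0.21 (SE 0.048, adjusted p 0.00318 in edgeR with the block), and it was the member that DESeq2 called without the block (adjusted p 0.0194). Cox7b, a small subunit of complex IV, rose by 0.20 (adjusted p 0.0153) and Ndufb11, an accessory subunit of complex I, by 0.13 (adjusted p 0.0148), each in 9 of 9 pairs. Cyc1 rose by 0.15 (adjusted p 0.0388) in 8 of 9 pairs. The calls of Sdhd, Atp5a1 and Cox7b held in all 18 fits without a single library. That of Ndufb11 was lost in 1 of them (adjusted p 0.056 without isoproterenol ctrlA replicate 2) and that of Cyc1 in 12 (adjusted p up to 0.108, without the same library).

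The low isoforms of complex IV moved in opposite directions. Cox4i2 had 6.92, 4.18 and 5.06 CPM in unstimulated and 10.8, 5.40 and 6.84 CPM in stimulated ctrlA cells. With LNA1 it went from 10.5, 5.50 and 6.82 to 12.2, 8.29 and 9.77 CPM, and with LNA2 from 6.86, 6.45 and 7.35 to 8.83, 8.65 and 6.61 CPM. It rose in 8 of 9 pairs, by 0.38 (SE 0.10, adjusted p 0.0135 in edgeR with the block). Cox6a2 had 10.8, 6.57 and 5.87 CPM in unstimulated and 7.90, 3.73 and 3.27 CPM in stimulated ctrlA cells. It fell from 8.15, 3.73 and 3.66 to 4.88, 3.27 and 2.78 CPM with LNA1, and from 9.99, 3.40 and 5.11 to 5.41, 3.46 and 1.84 CPM with LNA2. The fall was seen in 8 of 9 pairs and came to -0.64 (SE 0.12, adjusted p 0.000829 in edgeR with the block), the largest change of any member. Their main isoforms Cox4i1 and Cox6a1 were not called, with 0.11 (SE 0.086, adjusted p 0.366) and 0.04 (SE 0.064, adjusted p 0.716). Cox6a2 overlaps an exon of Itgad on the opposite strand.

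Among the other members that fell, Ndufv3, a small subunit of the NADH-oxidising part of complex I, was lower in 9 of 9 pairs. It went from 282, 213 and 200.2 to 244, 179 and 184 CPM with ctrlA, from 257, 204 and 201 to 221, 179 and 182 CPM with LNA1, and from 259, 193 and 188 to 205, 163.5 and 160.2 CPM with LNA2. Its log2 fold change was -0.22 (SE 0.033, adjusted p 0.000141 in edgeR with the block). Sdha, the catalytic subunit of complex II, fell by 0.16 (SE 0.043, adjusted p 0.0112) in 8 of 9 pairs, opposite to Sdhd in the same complex, while Sdhb and Sdhc had 0.03 and 0.03 and were not called. Atp5j, a stalk subunit of the ATP synthase, fell by 0.13 (adjusted p 0.0199) in 9 of 9 pairs, and Ndufs1, the largest iron-sulphur subunit of complex I, by 0.11 (adjusted p 0.039) in 8 of 9. The calls of Ndufv3, Sdha and Cox6a2 held in all 18 fits without a single library, that of Atp5j was lost in 5 (adjusted p up to 0.0789, without unstimulated ctrlA replicate 2) and that of Ndufs1 in 11 (adjusted p up to 0.103, without unstimulated LNA2 replicate 2). Without all libraries numbered 2, 4 members rose (Ndufa6, Uqcrh, Atp5a1 and Sdhd) and 2 fell (Ndufv3 and Cox6a2), against 7.01% and 6.1% of all genes. The other 7 were not called there, with adjusted p of 0.0584 for Cox7b, 0.0706 for Cox4i2, 0.0813 for Atp5j, 0.139 for Ndufb11, 0.203 for Ndufs1, 0.213 for Sdha and 0.272 for Cyc1 in edgeR.

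**Figure D5:**
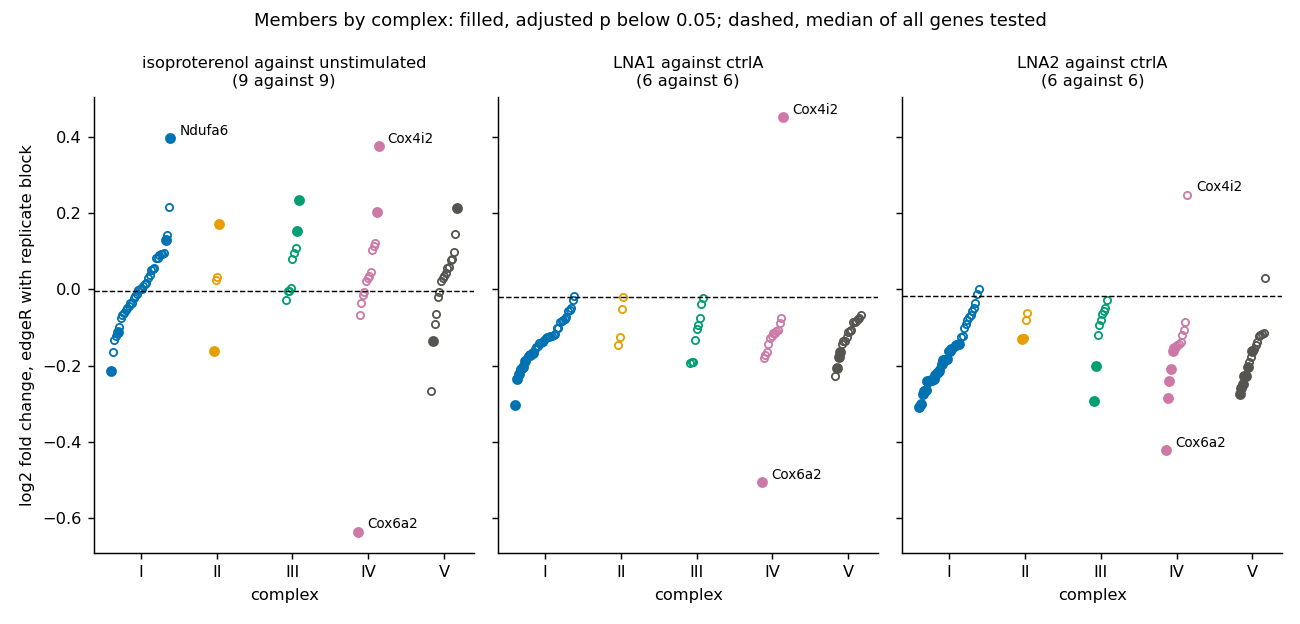
Log2 fold change of each member in edgeR with the replicate block, by complex, for isoproterenol (9 libraries against 9), LNA1 and LNA2 (6 against 6 each). Filled points have an adjusted p below 0.05, and the dashed line is the median of all genes tested. With isoproterenol the points lie on both sides of 0, and with LNA1 and LNA2 81 and 80 of 82 lie below 0.

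Both LNAs were compared with the same ctrlA libraries, averaged over unstimulated and stimulated cells. In bulk RNA, fewer adipocytes and less RNA per adipocyte cannot be told apart. With LNA1 the members lay slightly below ctrlA. The median log2 fold change was -0.12 with the block against -0.02 over all genes, and 81 of 82 members were below 0, as were 55.2% of all genes. Over the 18 fits with the block that left out a single library, 78 to 81 were below 0, and 72 without all libraries numbered 2. Without the block the number was 36 when unstimulated ctrlA replicate 2 was left out and 34 when isoproterenol ctrlA replicate 2 was. The members varied together over the 18 libraries, with a median pairwise correlation of 0.867. It was 0.314 after removal of the group and number means. The numbers below 0 with either LNA are therefore not counts of separate observations. With the block 11 members fell and Cox4i2 rose, against 4.03% of all genes that fell and 3.77% that rose. The 11 were 7 subunits of complex I, 1 of complex IV and 3 of complex V, and 49 members were lower in all 6 pairs of libraries with the same number, against 12.1% of all genes tested. The summed level of the members was 22689 ± 4387 CPM in unstimulated LNA1 cells and 24704 ± 5500 CPM in unstimulated ctrlA cells, and 22894 ± 4878 CPM and 25209 ± 4971 CPM with isoproterenol (SD, n = 3 each), so that these groups overlap. Within pairs the median member was lower by 0.05 to 0.19 on the log2 scale in 6 of 6.

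The count with LNA1 depended on single libraries. Without isoproterenol LNA2 replicate 3, which is in neither of the groups compared but enters the estimate of the spread, 45 members fell and 1 rose, against 9.32% and 5.66% of all genes. It was 4 called members without unstimulated ctrlA replicate 2, 5 without isoproterenol LNA1 replicate 3 or isoproterenol ctrlA replicate 4, 6 without unstimulated ctrlA replicate 4, and 7 without isoproterenol LNA1 replicate 2, isoproterenol ctrlA replicate 3, unstimulated LNA1 replicate 3 or isoproterenol LNA1 replicate 4. In these 8 fits 4.28% to 6.03% of all genes were called. Without all libraries numbered 2, or all numbered 4, 0 were called in edgeR with the block, against 2.35% and 0.591% of all genes.

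The members with the smallest p for LNA1 were accessory subunits of complex I. Ndufb3 had 178, 107 and 105 CPM with ctrlA and 139.7, 95.55 and 88.2 CPM with LNA1 in unstimulated cells, and 173, 110.2 and 103 against 139.9, 85.0 and 79.5 CPM in stimulated cells. It was lower in 6 of 6 pairs, by -0.30 (SE 0.048, adjusted p 0.00106 in edgeR with the block). Ndufb6 had 228, 134 and 128 CPM with ctrlA and 179, 121 and 118 CPM with LNA1 in unstimulated cells, and 231, 142 and 144 against 201, 117 and 117 CPM in stimulated cells. It was likewise lower in 6 of 6 pairs, by -0.23 (SE 0.043, adjusted p 0.0036). Ndufa12 (-0.22, adjusted p 0.00561) and Ndufb2 (-0.19, adjusted p 0.0114) were also lower in 6 of 6 pairs. All 4 calls held in the 18 fits without a single library, but were lost without all libraries numbered 2 (adjusted p 0.0715 to 0.269 in edgeR). Ndufb6 and Ndufb2 overlap exons of Smim27 and Braf on the opposite strand.

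The remaining members that fell with LNA1 were the complex I subunits Ndufb9 (-0.20), Ndufa10 (-0.17) and Ndufab1 (-0.17), the ATP synthase subunits Atp5b (-0.18), Atp5g3 (-0.21) and Atp5c1 (-0.16), and Cox6a2 (-0.51). Their adjusted p in edgeR with the block lay between 0.0162 and 0.045. Cox4i2 was higher in 6 of 6 pairs, by 0.45 (SE 0.13, adjusted p 0.0417), but this call was lost in 10 of 18 fits without a single library. The adjusted p reached 0.15 when unstimulated LNA1 replicate 2 was left out.

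With LNA2 more members passed the test. With the block 37 of 82 fell and 0 rose, against 11.2% of all genes tested that fell and 9.43% that rose. The median log2 fold change was -0.15 against -0.02 over all genes, and 80 of 82 were below 0, as were 52.8% of all genes. In the fits with the block that left out a single library 73 to 81 were below 0, and 67 without all libraries numbered 2. Without the block the number was 46 when unstimulated ctrlA replicate 2 was left out and 50 when isoproterenol ctrlA replicate 2 was. The 37 comprised 21 of 38 members of complex I, 1 of 4 of complex II, 2 of 9 of complex III, 6 of 14 of complex IV and 7 of 17 of complex V. Of all members 34 were lower in all 6 pairs, against 12.1% of all genes tested. In 5 of the 6 pairs the median member was lower by 0.14 to 0.25, and in the pair of isoproterenol LNA2 replicate 3 it was higher by 0.05. Without that library 70 members fell and 0 rose, against 13.3% and 8.72% of all genes. Without unstimulated ctrlA replicate 2 the count was 22 (against 8.63% of all genes that fell), without all libraries numbered 2 it was 6 (against 5.33% of all genes that fell) and without those numbered 4 it was 11 (against 2.96%). At an additional limit of 0.5 on the absolute log2 fold change, 0 members were called with LNA2 in the model with the block, against 5.53% of all genes.

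Cox7c, a small subunit of complex IV, had the smallest p for LNA2. It had 643, 300.3 and 283 CPM with ctrlA, 589, 291 and 272 CPM with LNA1 and 541, 260.4 and 243 CPM with LNA2 in unstimulated cells. In stimulated cells it had 677, 317 and 315.5, then 608, 281.5 and 274, and then 536, 244 and 254 CPM. LNA2 was lower than ctrlA in 6 of 6 pairs, by -0.28 (SE 0.039, adjusted p 0.000116 in edgeR with the block). Ndufs1 had 281, 254 and 233 CPM with ctrlA, 276, 235 and 225 CPM with LNA1 and 249, 198 and 176 CPM with LNA2 in unstimulated cells. In stimulated cells it had 256, 244 and 224, then 234, 208 and 201, and then 232, 185.5 and 178 CPM. LNA2 was lower than ctrlA in 6 of 6 pairs, by -0.30 (SE 0.046, adjusted p 0.000333). Ndufa10, an accessory subunit of complex I, was lower by -0.28 (SE 0.044, adjusted p 0.000489) and Atp5c1, the γ subunit that forms the turning shaft of the ATP synthase, by -0.28 (SE 0.047, adjusted p 0.000779), each in 6 of 6 pairs. These 4 calls held in all 18 fits without a single library and also without all libraries numbered 2. Ndufs1 overlaps an exon of Eef1b2 on the opposite strand.

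Among the other members that fell with LNA2, complex III was represented by Uqcrb (-0.29, adjusted p 0.00312) and the core protein Uqcrc2 (-0.20, adjusted p 0.0042), and complex II by Sdhc (-0.13, adjusted p 0.0363). In complex IV these were Cox6c (-0.24), Ndufa4 (-0.15), Cox5a (-0.16), Cox5b (-0.21) and Cox6a2 (-0.42) beside Cox7c, with adjusted p of up to 0.0485 in edgeR with the block. In complex V Atp5b (-0.23), Atp5g3 (-0.20), Atp5h (-0.23), Atp5j2 (-0.25), Atp5pb (-0.16) and Atp5md (-0.26) fell beside Atp5c1. Cox4i1, the highest member per kb of transcript, was not called with either LNA, with -0.18 (SE 0.10, adjusted p 0.344) for LNA1 and -0.14 (SE 0.10, adjusted p 0.389) for LNA2. Nor were Cox6a1 (-0.09 and -0.08), Cox7a2 (-0.11 and -0.15), Cox7a2l (-0.14 and -0.15), Uqcrq (-0.13 and -0.12), Atp5g1 (-0.09 and -0.18), Atp5g2 (-0.23 and -0.16), Sdha (-0.12 and -0.13), Sdhb (-0.05 and -0.08), Sdhd (-0.15 and -0.06) and Cyc1 (-0.19 and -0.06).

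LNA2 was then compared with LNA1 directly, since a call with 1 LNA and not with the other does not show a difference between them. With the block 1 member was higher and 4 were lower with LNA2, against 8.23% and 7.2% of all genes tested, and the median was -0.03. Cox7c (-0.16, SE 0.039, adjusted p 0.0127), Ndufs1 (-0.18, SE 0.046, adjusted p 0.015), Ndufb1 (-0.22, adjusted p 0.0226) and the complex I subunit Ndufs4 (-0.17, adjusted p 0.0326) were lower with LNA2 in 6 of 6 pairs. Ndufb3 was higher by 0.16 (adjusted p 0.0356) in 6 of 6 pairs. In the 18 fits without a single library these calls were lost in 1 for Cox7c (adjusted p 0.0558 without unstimulated LNA2 replicate 2), 2 for Ndufs1, 7 for Ndufb1, 9 for Ndufs4 and 10 for Ndufb3. Without all libraries numbered 2 Ndufs1 was called (adjusted p 0.0335) and the other 4 were not. Without isoproterenol LNA2 replicate 3 the counts were 1 and 13, against 7.41% and 7.47% of all genes. The count was 1 without isoproterenol LNA1 replicate 4 and 3 without isoproterenol LNA1 replicate 2. It was 2 without unstimulated LNA1 replicate 2 or 3, unstimulated LNA2 replicate 2, 3 or 4, or isoproterenol LNA1 replicate 3. In these fits 8.84% to 13.6% of all genes were called.

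No member was called in the interaction of LNA1 or LNA2 with isoproterenol, and neither was any other gene in edgeR (0% of all genes tested for LNA1 and 0% for LNA2 with the block). At an unadjusted p under 0.05 there were 0 members for LNA1 and 4 for LNA2 with the block, against 2.63% and 5.4% of all genes. The members with the smallest p in the model of group terms were Sdhc for LNA1, with an interaction of -0.10 (SE 0.17, adjusted p 1), and Atp5d for LNA2, with 0.32 (SE 0.27, adjusted p 1 in edgeR). Stimulated LNA2 cells had 334, 599 and 344.5 CPM of Atp5d, and the value of 599 came from isoproterenol LNA2 replicate 3. Without that library the interaction of Atp5d was -0.01.

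Genes that build, regulate or feed the respiratory chain were examined as lists, here in the model with the block and beside the shares of all genes given above. Of the 45 assembly factors of the complexes, 8 rose and 5 fell with isoproterenol (median 0.04), among them Uqcc3 (0.42), Uqcc2 (0.19) and Sdhaf1 (0.24), which rose, and Atpaf2 (-0.32), Acad9 (-0.21) and Surf1 (-0.16), which fell. Atpaf2, which helps to assemble the ATP synthase, was also called without the block (adjusted p 0.0473). With LNA1 0 rose and 3 fell (median -0.08), with LNA2 1 rose and 7 fell (median -0.09), where Sco2 rose (0.64) and Uqcc1 (-0.30), Foxred1 (-0.20) and Nubpl (-0.40) fell. The 13 subunits encoded by the mitochondrial genome had medians of -0.13, -0.13 and -0.21 with isoproterenol, LNA1 and LNA2, and mt-Nd4l (-0.29, adjusted p 0.0275 with LNA2) was the member of this list that was called.

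Of 16 tested regulators of mitochondrial biogenesis, 6 rose and 1 fell with isoproterenol (median 0.04). Ppargc1a, the coactivator PGC-1α that is induced in brown fat by cold, rose by 0.56 in both models (SE 0.072, adjusted p 2.07e-05 with the block). Pprc1 (0.32) and the nuclear receptor Ppara (0.33) rose and the mitochondrial RNA methyltransferase Tfb1m fell (-0.24). With LNA1 Esrra, which encodes the nuclear receptor ERRα, fell by 0.51 (SE 0.080, adjusted p 0.00112), and with LNA2 Ppargc1a fell by 0.31 (SE 0.088, adjusted p 0.019) while Pprc1 rose by 0.24. The calls of Esrra and of Pprc1, and that of Ppargc1a with LNA2, were not made without the block. The longest stretch of Esrra complementary to LNA1 had 10 bases, against at most 9 in any member, and that to LNA2 had 6. For Ppargc1a it had 7 bases for LNA1 and 8 for LNA2. The part of these matches in the differences was not tested.

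Enzymes that supply electrons were examined likewise. Of 17 pyruvate dehydrogenase and tricarboxylic acid cycle genes, 0 rose and 3 fell with LNA1 (median -0.13), and 0 rose and 10 fell with LNA2 (median -0.19), led by Pdhb (-0.31), Dlat (-0.39) and Pdha1 (-0.21). With isoproterenol 3 rose (among them Ogdh and Mdh2, 0.25 and 0.20) and 3 fell (Suclg2, Pdhb and Dlat, -0.20, -0.17 and -0.27). Of 78 mitochondrial ribosomal proteins, 8 rose and 4 fell with isoproterenol (median 0.03), 0 rose and 14 fell with LNA1 (median -0.14), and 1 rose and 20 fell with LNA2 (median -0.10). Within the comparison of each LNA with ctrlA, a gene of this list fell further than any member of the chain. Mrps28 fell by 1.05 with LNA1 (SE 0.066, adjusted p 1.46e-07), and Mrpl14 fell by 0.50 with LNA2 (SE 0.059, adjusted p 3.36e-05). Without the block 0 genes of the cycle or of the mitochondrial ribosome were called in these comparisons.

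The counts of these lists also depended on isoproterenol LNA2 replicate 3. Without it, 7 assembly factors fell with LNA1 and 7 with LNA2, where 1 rose, and 10 rose and 4 fell with isoproterenol. Of the 17 enzymes 10 fell with LNA1 and 16 with LNA2, and 4 rose and 5 fell with isoproterenol. Of the mitochondrial ribosomal proteins 31 fell with LNA1, 30 fell and 1 rose with LNA2, and 10 rose and 7 fell with isoproterenol. The regulators had 7 that rose and 1 that fell with isoproterenol, and 1 that fell with either LNA, and the subunits of the mitochondrial genome had 1 that fell with LNA2. The medians of these subunits were then -0.058, -0.13 and -0.13 with isoproterenol, LNA1 and LNA2. That of the regulators was 0.09 with isoproterenol.

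Markers of adipocytes and of other cells moved as well, in the model with the block. Of their calls with LNA1 or LNA2, only those of Pdgfra were also made without the block. With isoproterenol 0 of 10 adipocyte markers rose and 7 fell (median -0.34), led by Adipoq (-0.72), Fabp4 (-0.47) and Lipe (-0.41). Of 9 brown adipocyte markers 5 rose and 1 fell (median 0.38). With LNA1 1 of 10 adipocyte markers fell (Plin1, -0.23), and with LNA2 4 fell, among them Pparg (-0.20), Cd36 (-0.28) and Cidec (-0.21). Their summed level was 24700 to 32200 CPM in unstimulated ctrlA cells, 22600 to 28700 with LNA1 and 20900 to 27700 with LNA2. Of the brown adipocyte markers 1 fell with LNA1 (Elovl3, -0.44) and 3 with LNA2 (Elovl3, Ebf2 and Ppargc1a, -0.38, -0.44 and -0.31).

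Of the preadipocyte and fibroblast markers 7 of 10 were tested, and their summed level lay between 243 and 548 CPM in all groups, with Dpp4 at 0 in every library. Pdgfra rose with LNA1 (0.88) and LNA2 (0.70), also without the block, and with LNA2 Ly6a (0.66) and Pdgfrb (0.22) rose while Col3a1 fell (-0.62). With isoproterenol Ly6a (1.57), Col1a1 (0.31) and Col3a1 (0.22) rose and Pdgfrb fell (-0.34). Of 6 macrophage markers 3 were tested, and Cd68 rose with isoproterenol (0.90), LNA1 (0.42) and LNA2 (0.88). Cd14 rose with isoproterenol (1.29) and LNA2 (0.57), and Csf1r with LNA2 (1.71). The summed level of the 6 was 10.2 to 14.2 CPM in unstimulated ctrlA cells and 31.6 to 49.0 CPM in stimulated LNA2 cells, whereas the defining markers Ptprc and Adgre1 averaged 0.0539 and 0.0204 CPM. Of the 5 endothelial markers 2 were tested and 0 called, and their summed level stayed between 2.18 and 4.26 CPM, with Kdr at 0 in 4 of the 6 groups. Of the 10 muscle markers Acta1 was tested and rose with isoproterenol (0.68), and the summed level lay between 1.32 and 4.87 CPM, with 3 to 7 markers at 0 in a group, among them Myod1 in 5 of 6. Without isoproterenol LNA2 replicate 3, 4 adipocyte markers fell with LNA1, 5 with LNA2 and 7 with isoproterenol. The brown adipocyte markers then had 1 and 3 that fell with LNA1 and LNA2, and 5 that rose and 2 that fell with isoproterenol. Of the preadipocyte and fibroblast markers 1 rose and 2 fell with LNA1, 2 rose and 1 fell with LNA2, and 3 rose and 1 fell with isoproterenol, and of the macrophage markers 1, 2 and 2 rose. The part of these cells in the levels of the members was not tested.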

How the data were processed

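Polyadenylated RNA of wt1-SAM brown adipocytes was sequenced as paired-end reads. The authors trimmed the reads with cutadapt and quantified them against the Gencode M22 transcriptome (GRCm38) with salmon, and the deposited values are estimated counts per gene, given as whole numbers. How salmon divided reads between similar transcripts, and whether strand was used, was not stated in the sources used here. Coordinates and transcript lengths (the principal isoforms) came from GENCODE M21 of the same build, promoters from RefSeq (GRCm38.p6) and the LNA sequences from the supplement of the study.

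The main fit to these counts used edgeR 4.0.16 under R 4.3.3 (filterByExpr, minimum count 10, minimum total 15, TMM, glmQLFit over all 18 libraries with 1 term per group, glmQLFTest). Adjustment was by Benjamini-Hochberg over 14949 genes, and all tests were two-sided. LNA effects were averaged over stimulation (6 against 6) and isoproterenol over LNAs (9 against 9). The replicate numbers were taken to pair the libraries, since in all 45 pairs of libraries with the same number the deviations from the group means correlated by more than 0.1 (0.24 to 0.722), and the block with the replicate number was fitted beside the main model. Of 90 pairs with different numbers, 29 also exceeded 0.1, up to 0.404. This overlaps the pairs numbered 3 (0.252 to 0.505) and 4 (0.24 to 0.47), but not those numbered 2 (0.649 to 0.722). The limit of 0.1 alone thus did not separate pairs with the same number from all others. DESeq2 1.42.0, RLE scaling, no filter and left-out libraries were alternatives. Depths of 9167560 to 19723021 counts put 3 counts at 0.152 to 0.327 CPM before scaling, and this covers counting error only.

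Named members were, per comparison, those called with the smallest p (up to 8 in each direction for isoproterenol, 4 for LNA comparisons and the smallest p of each interaction), the highest member of each complex, a fixed set of isoforms and complex II subunits, Ucp1 and Gm15551, and up to 3 called genes per list and direction. Since no member was called without the block, the rule was applied to the model with the block. Other members that fell with the LNAs, Uqcrc1, Ndufv1 and Cox8a were named after their values were seen. Some genes that the rule would name are not reported here. Members and lists were chosen with earlier results of these data known.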

Additional observations from a re-analysis of the deposited data

Results flagged for a closer look

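For Sdhc, an anchor subunit of complex II, the difference between LNA1 and ctrlA had opposite signs in stimulated and unstimulated cells. It was small in both, and the interaction was not called. Every pair of libraries with the same number lay above 0 in unstimulated cells (mean 0.028 on the log2 scale, n = 3) and below 0 in stimulated cells (mean -0.066, n = 3), a difference of -0.094. In edgeR the interaction had an adjusted p of 1 in both models.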

How the results depend on the processing

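With group terms alone 0 members were called in any comparison, and this held in all fits without a single library (0 to 0). With the replicate block 13, 12, 37 and 5 members were called for isoproterenol, LNA1, LNA2 and LNA2 against LNA1. DESeq2 called 1, 1 and 2 of the first 3 without the block, and with the replicate block 18, 19, 45 and 7 (7.12%, 1.26% and 3.5% of all genes without, and 25.6%, 8.65%, 22.7% and 15.5% with it). Without the libraries numbered 2 and without the block 4 members were called with isoproterenol and 4 with LNA2, against 10.9% and 8.97% of all genes. With the block and without the libraries numbered 2 the counts were 6, 0, 6 and 1, against 13.1%, 2.35%, 11.9% and 7.2% of all genes. Without those numbered 3, 11 rose and 7 fell with isoproterenol, 12 fell with LNA1 and 55 with LNA2. LNA2 against LNA1 had 0 there, and 21.8%, 5.25%, 14.2% and 8.71% of all genes were called. Without those numbered 4 the counts were 6, 0, 11 and 0, against 19.3%, 0.591%, 6.88% and 3.47% of all genes. At an absolute log2 fold change above 0.5 they were 1, 1, 0 and 0, against 7%, 2.43%, 5.53% and 4.11% of all genes. Over the fits with the block that left out a single library they ranged from 10 to 28, 4 to 46, 22 to 70 and 1 to 14. In the same fits 21.7% to 29.8%, 4.28% to 15%, 13.6% to 24.3% and 8.84% to 19.2% of all genes were called. The cause of these differences was not tested. The median log2 fold change of the members ranged over the same fits without the block from -0.069 to 0.135 for isoproterenol, -0.271 to 0.026 for LNA1 (-0.16 without a filter on low counts, -0.091 without the libraries numbered 2) and -0.285 to -0.015 for LNA2. The summed level with LNA1 changed by -0.13 on the log2 scale, and by -0.075 as a share of counts without mitochondrial-genome and ribosomal RNA genes. Reversed without the block were Cox7c in LNA2 against LNA1 (0.073 and 0.08, range -0.385 to 0.08), Ndufs4 (0.081 and 0.051, range -0.399 to 0.081) and Ndufb1 (0.002, range -0.414 to 0.002) there, each without an LNA1 library numbered 2, Ndufb2 with LNA1 (0 without unstimulated ctrlA replicate 2, range -0.363 to 0), and the interaction of Atp5d (-0.01 without isoproterenol LNA2 replicate 3, range -0.01 to 0.477). The cause was not tested. In the reference fit, with group terms alone, no named member was called. Of the other values of named members under these alternatives, 634 kept their direction and remained uncalled, and 55 became called. The 634 therefore do not show that the calls made with the block hold.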
